A study of Mus musculus with 11 samples.

Results

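Rasa4, Diras2, Shc1, Dok4 and Ptpn3 are 5 mouse genes whose products act between growth factor receptors and Ras-type signalling. They were measured in embryonic trigeminal ganglia, which hold the sensory neurons of the face, with and without the transcription factor Brn3a. The genes were chosen by their measured fall in knockout ganglia together with this role. Their lower knockout signals are therefore a description here, and adjusted p-values given for them below are not read as a test. Every probe set annotated to 1 of the 5 genes was taken, which gave 10 probe sets of 24899 in all, 3 on U74Av2 and 7 on U74Bv2. The arrays name 13675 genes in all.

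Ganglia came from embryos at embryonic day 13.5 in 3 genotypes of Brn3a, whose gene is Pou4f1: knockout, heterozygote and wild-type. Affymetrix U74Av2 arrays numbered 6 (2 knockout, 2 heterozygote, 2 wild-type) and U74Bv2 arrays numbered 5 (2 knockout, 2 heterozygote, 1 wild-type). For each array 10 to 12 ganglia of like genotype were pooled, and no label ties pools to single animals or says whether both array types received the same pools. P-values therefore measure the spread between these arrays, which may be technical. The labels name no treatment, strain or sex, nor which part of Pou4f1 was deleted. Precision is limited by how few arrays there are, and the lone wild-type U74Bv2 array has no spread of its own.

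Growth factors such as the neurotrophins bind receptor tyrosine kinases on sensory axons. The activated receptor carries phosphotyrosines, on which adaptors such as Shc1 and docking proteins such as Dok4 assemble, and exchange factors recruited there load Ras-type GTPases with GTP. GTPase-activating proteins such as Rasa4 switch Ras off again, and tyrosine phosphatases such as Ptpn3 remove phosphate from signalling proteins. Embryonic sensory neurons depend on this signalling for survival and axon growth.

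RefSeq promoter windows of build GRCm38.p6, which run from 250 bases before to 50 bases after a gene's start, were matched for 4 of the 5 genes and gave 5 windows. The Rasa4, Diras2 and first Shc1 windows are shown because they hold, between them, the POU-type match, no match of any motif searched, and the largest number of CCAAT boxes. Capitals mark the POU class 4 core ATTAAT and the CCAAT box, which reads ATTGG on the other strand.
Rasa4, chr5:136083666-136083965, plus strand: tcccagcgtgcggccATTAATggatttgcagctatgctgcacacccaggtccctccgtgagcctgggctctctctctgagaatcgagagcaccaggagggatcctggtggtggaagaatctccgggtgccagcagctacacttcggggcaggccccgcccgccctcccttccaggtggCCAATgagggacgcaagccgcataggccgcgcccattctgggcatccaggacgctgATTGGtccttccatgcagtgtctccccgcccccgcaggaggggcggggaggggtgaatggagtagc
Diras2, chr13:52530787-52531086, minus strand: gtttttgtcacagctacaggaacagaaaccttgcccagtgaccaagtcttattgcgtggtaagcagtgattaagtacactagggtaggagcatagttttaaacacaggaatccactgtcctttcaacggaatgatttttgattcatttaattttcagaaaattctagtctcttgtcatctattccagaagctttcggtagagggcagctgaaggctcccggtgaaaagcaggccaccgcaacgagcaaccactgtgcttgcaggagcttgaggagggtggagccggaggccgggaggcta
Shc1, first start, chr3:89418301-89418600, plus strand: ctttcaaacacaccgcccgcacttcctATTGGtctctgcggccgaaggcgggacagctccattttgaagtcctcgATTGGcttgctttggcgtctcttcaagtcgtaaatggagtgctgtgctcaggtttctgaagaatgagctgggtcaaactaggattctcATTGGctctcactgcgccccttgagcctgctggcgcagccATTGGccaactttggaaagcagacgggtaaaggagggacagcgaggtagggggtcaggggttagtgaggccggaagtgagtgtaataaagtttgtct

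The 6 motifs searched, on both strands, were named after the windows had been seen. The POU class 4 core ATTAAT, the kind of site that Brn3a binds, was found in 1 of the 5 windows, that of Rasa4 at position -235 from the start, and in 4.75% of all 32544 RefSeq promoter windows. The POU octamer ATGCAAAT was in 0 of the 5 windows and 1.75% of all windows. The homeodomain core TAATTA was likewise in 0 of the 5 windows, against 5.29% of all, and can overlap ATTAAT. The CCAAT box was in 4 of the 5 windows, those of Rasa4, Ptpn3 and both Shc1 starts, against 37.4% of all windows. The first Shc1 window held it at -223, -175, -87 and -47. The GC box GGGCGG was in 2 windows, of Rasa4 and Shc1 at its first start, against 35.9% of all. The TATA box TATAAA was in 0, against 13.6%. The windows differed in base composition: GC made up 64.7% for Rasa4, 65.3% for Ptpn3, 53.7% and 53.3% for Shc1 and 47.7% for Diras2, beside a median of 53.0% over all windows. A match describes letters only.

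The targeted gene and the marker lists give the setting. Pou4f1 signal on its 1 tested probe set was 549.8 and 904.3 in knockout ganglia, 2196.0 and 3570.1 in heterozygotes and 3313.1 in wild-type. The knockout minus wild-type log2 difference was -2.15 ± 0.34 (SE, limma adjusted p = 0.0245). Whether this probe set lies in the deleted part is not given, so it does not by itself check the labels. The summed signal of 12 of 15 sensory neuron markers on U74Av2 ranged over 74681.4 to 79799.9 in knockout, 82845.0 to 101380.1 in heterozygote and 74755.7 to 76501.0 in wild-type ganglia. Isl1, a defining marker of sensory neurons, had 2852.4 and 2295.7 in knockout, 3503.9 and 2649.8 in heterozygote and 2786.8 and 2999.6 in wild-type ganglia. Prph, which encodes the neuronal filament peripherin, had 4015.2 and 6026.6, 9047.9 and 10443.8, and 7325.6 and 11129.6 in knockout, heterozygote and wild-type ganglia, on a probe set that can match several transcripts. Tubb3, a neuronal tubulin, on another such probe set, ran the other way, with 26861.0 and 22418.0 in knockout, 35465.1 and 21561.6 in heterozygote and 21164.7 and 17183.0 in wild-type ganglia. On U74Bv2 the sum over 7 of 15 neuron markers was 47834.8 to 55854.9 in knockout, 54681.6 to 57011.1 in heterozygote and 59026.4 in wild-type ganglia. That sum includes the signal of Pou4f1 itself, the targeted gene, which was lower in knockout ganglia as given above. The sum over 9 of 12 glial markers was 21583.8 to 24416.6 in knockout, 19365.4 to 20879.3 in heterozygote and 17240.0 to 18641.3 in wild-type ganglia on U74Av2, without overlap. On U74Bv2 the sum over 3 of 12 was 18127.3 to 19755.5 in knockout, 15809.0 to 16078.2 in heterozygote and 17082.7 in wild-type ganglia, again highest in knockout but with heterozygotes below wild-type. Sox10, a defining glial marker, overlapped between the genotypes on U74Av2, while on U74Bv2 it had 3081.7 and 4516.9 in knockout, above the 2863.2 and 3062.8 in heterozygote and 2904.4 in wild-type ganglia. On U74Av2 the sum over 9 of 10 mesenchyme markers was 11197.0 to 12390.0 in knockout, 9375.7 to 10010.1 in heterozygote and 8620.0 to 9784.9 in wild-type ganglia, with knockout highest. No listed marker passed the test in knockout against wild-type apart from Pou4f1. Ptprc, a defining immune cell marker, had 7.0 to 12.4 on the 6 U74Av2 arrays, where Csf1r, a macrophage receptor, had 111.5 to 221.4. Red blood cell markers (5 of 7) on U74Av2 summed to 47923.7 to 58794.5 in knockout, 44308.9 to 66243.9 in heterozygote and 37544.7 to 44159.2 in wild-type ganglia. Endothelial markers (7 of 8) summed to 1158.7 to 1197.8, 1062.8 to 1111.2 and 1207.4 to 1375.8 in the same order. In bulk ganglia fewer cells of a type and less RNA per cell cannot be told apart. The part of these marker sums in the results that follow was not tested.

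Knockout ganglia had the lowest signal of the 3 genotypes for every one of the 5 genes. In all 10 probe sets both knockout arrays lay below every heterozygote and wild-type array. Over the 7 probe sets bright enough to be tested, mean knockout signal was 14.1% to 53.9% of the wild-type mean, and mean heterozygote signal was 81.6% to 95.3% of it. A probe set was tested when its mean log2 signal lay above the 40th percentile of its array type, and each of the 5 genes has a tested one. Differences, and the folds given with them, are on the scale of log2(signal + pseudocount), which understates the change of dim probe sets. A fold can therefore be smaller than the ratio of the mean signals. In the limma fit over all arrays of a type, 2 of 2 tested probe sets on U74Av2 and 4 of 5 on U74Bv2 had an adjusted p under 0.05 in knockout against wild-type, where 0.255% and 1.4% of all tested probe sets did. Against heterozygotes these were 1 of 2 and 4 of 5, where 0.188% and 1.71% of all did. Because the genes were chosen by these differences, nothing is read from the counts. On U74Av2, 0 of 2 passed against wild-type when any 1 knockout or wild-type array was left out, and 0 of 2 passed against heterozygotes whichever array was left out.

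**Figure D1:**
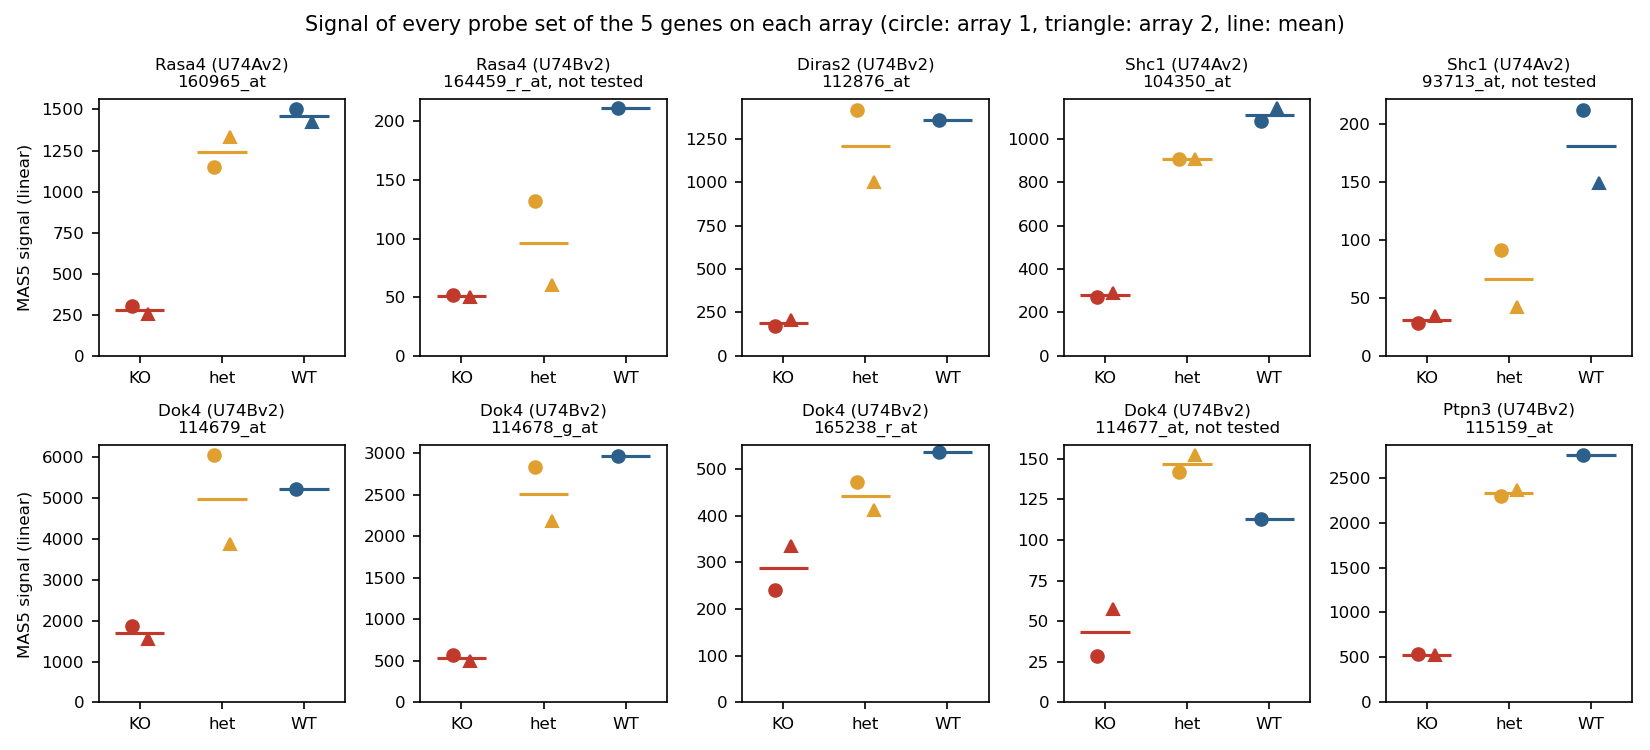
Signal of each of the 10 probe sets of the 5 genes on each array, on a linear axis from 0 in MAS5 signal units, with knockout arrays left, heterozygotes in the middle and wild-type right; points are arrays and lines are genotype means. In every panel the knockout points lie below all others, and in 2 panels, Diras2 and Dok4 114679_at, the heterozygote points lie on both sides of the wild-type array.

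Shc1 encodes the Shc adaptor proteins, which bind phosphorylated receptors through phosphotyrosine-binding domains and bring the Grb2-Sos complex to Ras. The tested probe set, 104350_at, had 272.5 and 291.7 in knockout ganglia, 904.6 and 905.7 in heterozygotes and 1079.1 and 1139.5 in wild-type. All 3 genotypes were separate from each other, with knockout far lowest and heterozygotes below wild-type. The knockout mean was 25.4% and the heterozygote mean 81.6% of wild-type, and knockout minus wild-type was -1.80 ± 0.20 (SE). Its other U74Av2 probe set, 93713_at, was too dim to be tested, at 28.0 and 34.6, 91.6 and 41.9, and 212.6 and 149.5 in knockout, heterozygote and wild-type ganglia. There the heterozygote mean was 36.9% of wild-type and the knockout mean 17.3%. Both probe sets order the genotypes the same way but differ in where heterozygotes stand.

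Dok4 is a docking protein of the Dok family, with a pleckstrin homology and a phosphotyrosine-binding domain, and binds activated receptor tyrosine kinases. It has 4 probe sets on U74Bv2, 3 of them tested. The brightest, 114679_at, had 1868.7 and 1550.6 in knockout ganglia, 6060.0 and 3881.1 in heterozygotes and 5214.0 in wild-type. The knockout mean was 32.8% of the wild-type value, and the heterozygotes lay on either side of it. On 114678_g_at the signals were 575.2 and 495.1 in knockout, 2835.6 and 2185.7 in heterozygote and 2972.7 in wild-type ganglia, with the knockout mean at 18.0%. The probe set 165238_r_at, designed with relaxed rules, had 241.4 and 335.7 in knockout, 472.7 and 411.5 in heterozygote and 535.7 in wild-type ganglia. Its knockout mean was 53.9% of wild-type, and it is the tested probe set that missed the threshold in knockout against wild-type. Knockout minus wild-type was -1.59 ± 0.28, -2.37 ± 0.23 and -0.81 ± 0.29 for the 3 probe sets. The untested 114677_at had 28.7 and 57.6, 141.8 and 152.0, and 112.7 in knockout, heterozygote and wild-type ganglia. It is the 1 probe set with both heterozygotes above wild-type.

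Ptpn3 encodes a cytosolic tyrosine phosphatase with FERM and PDZ domains. Its 1 probe set, 115159_at, had 533.5 and 522.5 in knockout ganglia, 2293.4 and 2363.3 in heterozygotes and 2746.8 in wild-type. Arrays of 1 genotype lay close together, and the 3 genotypes did not overlap. The knockout mean was 19.2% and the heterozygote mean 84.8% of wild-type, with knockout minus wild-type at -2.28 ± 0.19 (SE), a fold of 4.84.

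Rasa4, also known as CAPRI, is a calcium-dependent GTPase-activating protein that switches Ras off. On 160965_at the signals were 305.1 and 254.9 in knockout ganglia, 1152.4 and 1330.2 in heterozygotes and 1502.1 and 1422.2 in wild-type. The 3 genotypes were separate, with SDs of 35.5, 126 and 56.5 in knockout, heterozygote and wild-type ganglia (n = 2 each), and the knockout mean was 19.2% and the heterozygote mean 84.9% of wild-type. Knockout minus wild-type was -2.20 ± 0.21, a fold of 4.59, rank 10 from the lowest of 7453 tested differences on that array type. Its other probe set, on U74Bv2, 164459_r_at, was too dim to be tested and had 52.1 and 50.3, 131.8 and 60.5, and 211.1 in knockout, heterozygote and wild-type ganglia. It also put both knockout arrays lowest, at 24.3% of wild-type.

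Diras2 is a Ras-family GTPase with low intrinsic GTPase activity, known mainly from brain. Its signals on 112876_at were 174.5 and 207.0 in knockout ganglia, 1416.9 and 1002.0 in heterozygotes and 1357.5 in wild-type. The heterozygotes lay on both sides of wild-type while both knockout arrays were far lower. The knockout mean was 14.1% of wild-type, the lowest of the tested probe sets, and knockout minus wild-type was -2.55 ± 0.27 (SE), a fold of 5.86 and rank 5 from the lowest of 7446 on that array type.

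**Figure D2:**
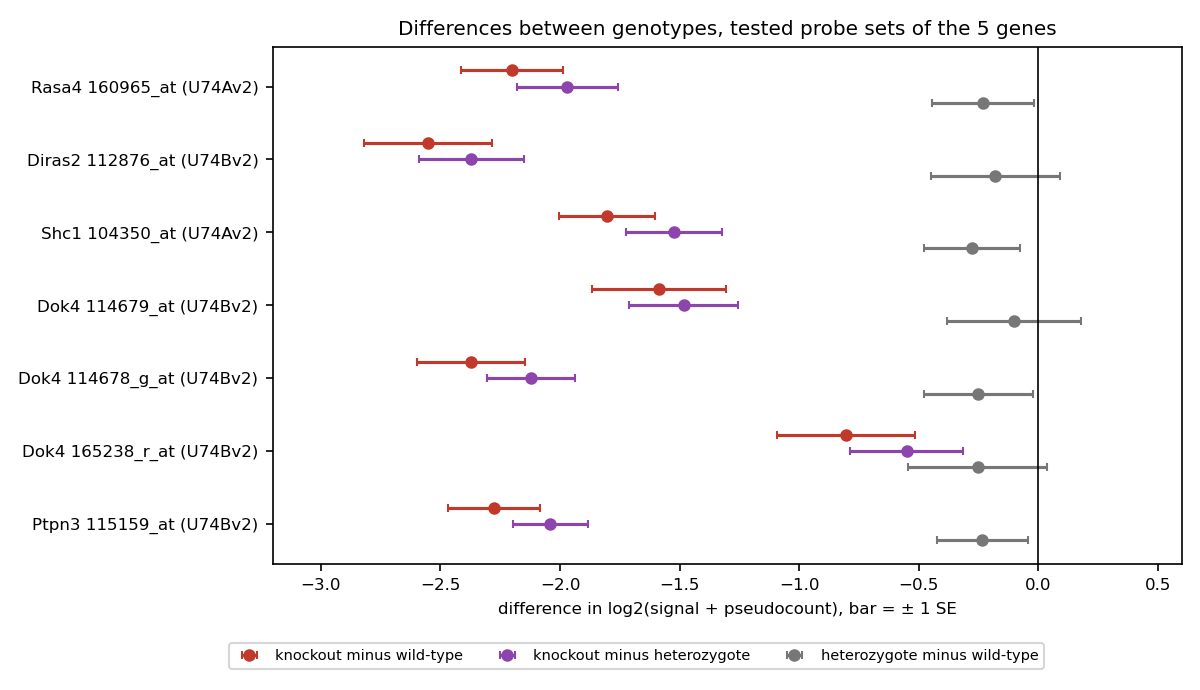
Differences in log2(signal + pseudocount) for the 7 tested probe sets, with knockout minus wild-type in red, knockout minus heterozygote in purple and heterozygote minus wild-type in grey; points are limma estimates and bars 1 SE. The knockout differences lie between -2.55 and -0.55, and the heterozygote minus wild-type differences between -0.28 and -0.10.

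Whether 1 copy of Brn3a also goes with lower signals of the 5 genes was asked by setting heterozygotes against wild-type. The genes were not chosen by this comparison, but its arrays may have entered the choice, which rested on falls in knockout ganglia. Falls against wild-type would favour lower heterozygote minus wild-type differences, and falls against heterozygotes higher ones. Which of these was used is not stated. No difference passed. On U74Av2, 0 of 2 probe sets had a limma adjusted p under 0.05, where 0% of all did, and 52 of 7453 had an unadjusted p under 0.05. On U74Bv2 it was 0 of 5, where 0% of all did, with 283 of 7446 at an unadjusted p under 0.05. The lowest unadjusted p among the 7 was 0.207.

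Rasa4 differed by -0.23 ± 0.21 (SE, 95% interval -0.73 to 0.27, limma adjusted p = 1.00). Shc1 104350_at differed by -0.28 ± 0.20 (interval -0.75 to 0.19). Diras2 differed by -0.18 ± 0.27 (-0.79 to 0.43) and Ptpn3 by -0.23 ± 0.19 (-0.67 to 0.20). The Dok4 probe sets differed by -0.10 ± 0.28 (-0.74 to 0.53) on 114679_at, -0.25 ± 0.23 (-0.77 to 0.26) on 114678_g_at and -0.25 ± 0.29 (-0.91 to 0.40) on 165238_r_at, each with an adjusted p of 1.00. Every interval holds 0 and reaches down to -0.67 or lower, so these arrays do not show that heterozygotes and wild-type are alike. All 7 estimates are negative. Nothing is read from their signs, because the choice of genes may have shifted them. Also, 3 of the 7 are Dok4, and probe sets on 1 array type share their wild-type arrays.

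The other genes of the pathway, from lists of Ras-type GTPases, regulators, adaptors, kinases, phosphatases and receptors, did not pass the test in knockout against wild-type. Of 68 such genes tested on U74Av2, 0 passed and 4 had an unadjusted p under 0.05. Of 58 on U74Bv2, 0 passed and 13 had an unadjusted p under 0.05. A gene was counted when any of its tested probe sets met the mark, whereas the shares over all are of probe sets. The gene counts can therefore run higher than those shares. Over all tested probe sets, 0.255% passed and 381 of 7453 had an unadjusted p under 0.05 on U74Av2, and 1.4% passed and 834 of 7446 had one on U74Bv2, so that few or none of a list this size would pass at the overall share. Their median knockout minus wild-type difference was 0.04 on U74Av2 and 0.03 on U74Bv2, where it was 0.02 over all tested probe sets on either. Against heterozygotes, 0 of 68 genes passed on U74Av2, with 5 at an unadjusted p under 0.05, and 1 of 58 passed on U74Bv2, Grb14, with 10 at an unadjusted p under 0.05, where 391 of 7453 and 720 of 7446 of all tested probe sets had one. The medians there were 0.01 and 0.02. Both knockout comparisons share the knockout arrays.

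Among receptor adaptors and docking proteins, 13 genes were tested on either array type, with a median knockout minus wild-type difference of 0.15 on U74Av2 and -0.07 on U74Bv2. Grb14, an adaptor that binds the insulin receptor and inhibits it, had 836.6 and 765.0 in knockout ganglia, 2614.8 and 1951.1 in heterozygotes and 1680.6 in wild-type. Its knockout arrays were below all others, and the wild-type array was below both heterozygotes. It fell in knockout against heterozygote ganglia, with a log2 difference of -1.44 ± 0.19 (SE, limma adjusted p = 0.00694). Against wild-type the difference was -1.03 ± 0.23 (adjusted p = 0.0919), and it was -1.09 and -0.97 without knockout 1 and 2. Whether it passed against wild-type varied between the alternative runs described below.

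The Ras-type GTPases had 10 tested genes on U74Av2 and 12 on U74Bv2, with medians of -0.07 and 0.11, and 0 passed, with 0 and 3 at an unadjusted p under 0.05. The brightest, the Rap-family GTPase Rap2a, had 4060.9 and 3156.6 in knockout, 5284.4 and 4249.9 in heterozygote and 5517.6 in wild-type ganglia (-0.62 ± 0.24, SE, adjusted p = 0.388). Its dimmer U74Av2 probe set, 92212_at, differed by -0.12 ± 0.46. Nras, a classical Ras gene, differed by -0.04 ± 0.27 on 94362_at. GTPase-activating proteins numbered 7 and 5, with medians of -0.03 and 0.36, and exchange factors 6 and 10, with medians of -0.05 and -0.24; 0 genes of either list passed, with 1 and 2 of the activating proteins and none of the exchange factors at an unadjusted p under 0.05. Rap1gap, which acts on Rap, differed by -0.56 ± 0.46 and Rap1gap2 by 0.40 ± 0.19. The exchange factors Rapgef6 and Ralgds differed by 0.35 ± 0.22 and 0.14 ± 0.33. On its dimmer probe set 161778_i_at, Ralgds differed by 0.66 ± 0.36.

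The Raf-MEK-ERK list, with 9 and 3 tested genes, had medians of -0.02 and -0.03, and 0 genes passed or reached an unadjusted p under 0.05. The scaffold Shoc2 differed by 0.05 ± 0.28 on its brightest probe set, and the Raf inhibitor Pebp1 by 0.11 ± 0.20 on a probe set that can match several transcripts. Feedback inhibitors of ERK signalling, with 5 and 8 tested genes, had medians of -0.28 and -0.11, and 0 passed, with 1 and 3 at an unadjusted p under 0.05. Spry2, a feedback inhibitor of receptor signalling, had 2492.0 and 1860.5 in knockout, 3212.3 and 2565.2 in heterozygote and 3456.3 in wild-type ganglia (-0.67 ± 0.24, SE, adjusted p = 0.340). Spred1 differed by -0.19 ± 0.19 on its brightest probe set. Non-receptor tyrosine phosphatases, the class of Ptpn3, had 9 and 4 tested genes, medians of -0.00 and 0.36, and 0 passed, with 0 and 1 at an unadjusted p under 0.05. Ptpn11, the phosphatase Shp2, differed by -0.16 ± 0.20 on its brightest probe set and 0.40 ± 0.23 on 164615_f_at, which can match several transcripts. Ptpn9 differed by -0.02 ± 0.20. Growth factor receptor tyrosine kinases had 9 and 3 tested genes, medians of 0.18 and 0.52, and 0 passed, with 2 and 2 at an unadjusted p under 0.05. Igf1r differed by 0.24 ± 0.22 on its brightest probe set, and Erbb3, a neuregulin receptor of glia, by 0.18 ± 0.27. On U74Bv2 Igf1r differed by 0.52 ± 0.21 on 106956_at and 0.58 ± 0.25 on 116112_at, each with an unadjusted limma p under 0.05.

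**Figure D3:**
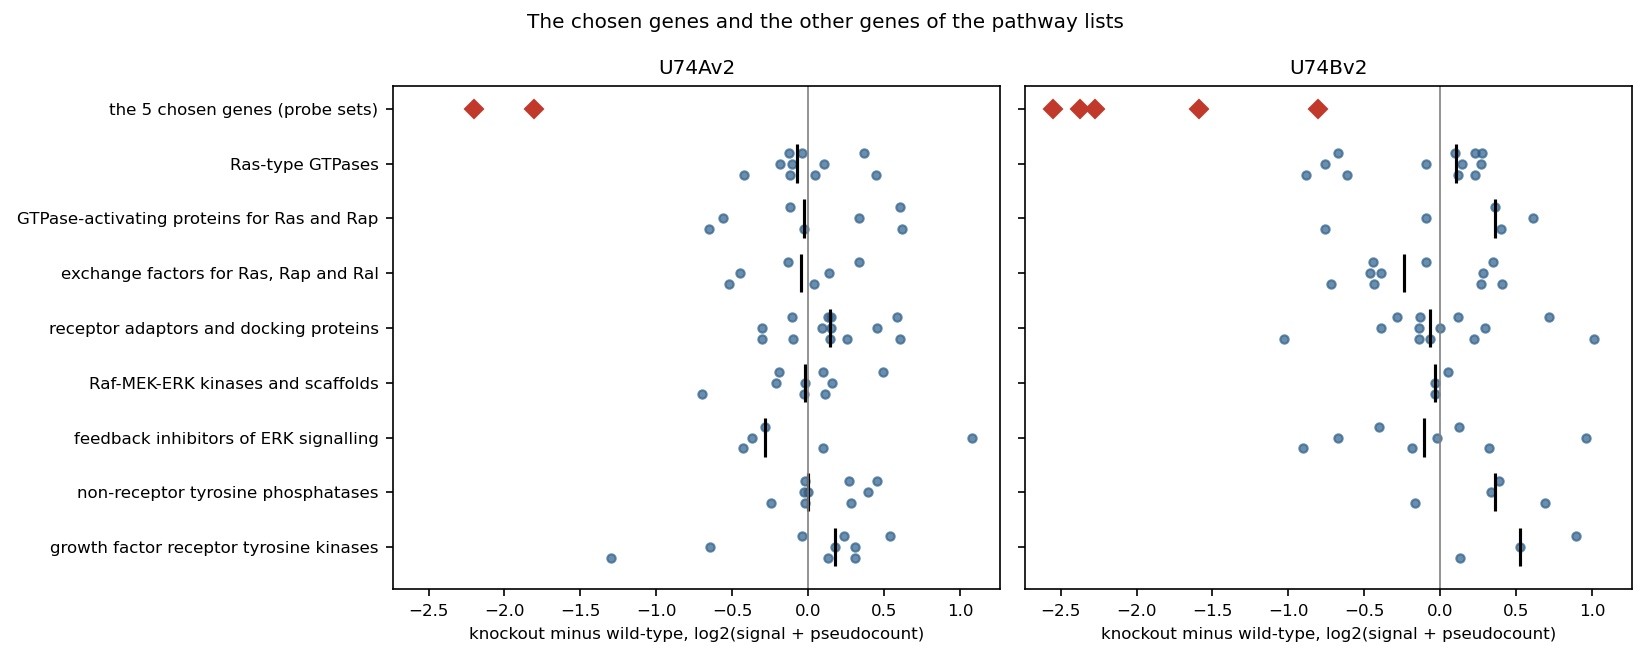
Knockout minus wild-type difference in log2(signal + pseudocount) for each tested gene of the 8 pathway lists, by its brightest probe set, with the 5 genes' own probe sets drawn apart and bars at list medians. The other genes range from -1.30 to 1.08 on U74Av2 and from -1.03 to 1.01 on U74Bv2, and the 5 genes' tested probe sets from -2.55 to -0.81.

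Paralogs of the 5 genes were also measured where a probe set was annotated to them. Of 12 listed paralogs, 8 were on the arrays with 14 probe sets, and 11 probe sets of 7 genes were tested. Diras1, Shc4, Dok5 and Dok6 had no such probe set. No listed relative of Diras2 was therefore measured, and Dok1 was the only listed paralog of Dok4 that was. Outside that paralog list, Dok2, Dok3 and Dok7 were tested among the adaptors. Knockout minus wild-type on U74Bv2 was -0.003 for Dok2, -0.29 for Dok3 and -0.39 for Dok7, and on U74Av2 0.45 for Dok2. In limma, 0 of the 11 passed in either knockout comparison, with 2 at an unadjusted p under 0.05 against wild-type and 1 against heterozygotes. With 0.188% to 1.71% of all tested probe sets passing these comparisons, 0 of 11 lies near the overall share. Shc2, the neuronal relative of Shc1, had 6681.0 and 6308.2 in knockout ganglia, 7046.5 and 6175.5 in heterozygotes and 7161.9 in wild-type on 108783_at (-0.14 ± 0.22, SE). The knockout arrays lay between the heterozygote arrays, and the wild-type array lay above all others. Its other probe set, 106542_at, differed by 0.18 ± 0.23. Shc3 was too dim to be tested. Rasa3, a Ras GTPase-activating protein like Rasa4, had 485.7 and 622.5 in knockout, 278.6 and 423.8 in heterozygote and 280.6 and 421.5 in wild-type ganglia (0.60 ± 0.30, SE, adjusted p = 1.00). Its knockout arrays lay above all others, opposite to Rasa4. Rasa1 differed by -0.03 ± 0.40 on 99467_at and 0.61 ± 0.25 on 117059_at, and Rasal1 by -0.12 ± 0.33. Rasa2 differed by 0.35 ± 0.22, 0.36 ± 0.20 and -0.39 ± 0.34 on its 3 probe sets. Dok1 differed by 0.15 ± 0.32, and Ptpn4, the closest relative of Ptpn3, by 0.69 ± 0.30 on 114801_at (adjusted p = 0.443). The differences between a gene and its paralog were not tested.

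The tested probe sets most like each gene's brightest one were found by the root-mean-square difference of log2 profiles, centred on their means, over 6 arrays on U74Av2 and 5 on U74Bv2. They describe likeness across genotypes that were used to choose the 5 genes. Rasa4 and Kcna1, a potassium channel, were closest on U74Av2 at 0.109, ahead of Gal, the neuropeptide galanin, at 0.122 and Hmx1, a homeobox transcription factor, at 0.138, where the median over all candidates was 1.03. Shc1 lay closest to Olfm1, a secreted olfactomedin protein, at 0.0994, with a median of 0.839, and then to Kcnab2 at 0.193 and Meis2 at 0.199. The distance between Rasa4 and Shc1 was 0.229.

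On U74Bv2, Diras2 was closest to Rgs7bp, which anchors RGS proteins at the membrane, at 0.150. Dok4 114678_g_at at 0.172 and Ptpn3 at 0.237 came next. Nothing is read from nearness among the 5 genes, because all were chosen by a fall in knockout ganglia. Ptpn3 was closest to Dok4 114678_g_at at 0.147, followed by Runx1, a transcription factor of sensory neurons, at 0.168 and Plcxd2 at 0.169. Dok4 114679_at was closest to Osbpl10 at 0.103, Galnt18 at 0.116 and the splicing factor Rbfox1 at 0.148. The medians were 1.23 for Diras2, 1.07 for Ptpn3 and 0.807 for Dok4. The 2 Dok4 probe sets 114679_at and 114678_g_at were 0.352 apart, farther than 114678_g_at was from Ptpn3.

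**Figure D4:**
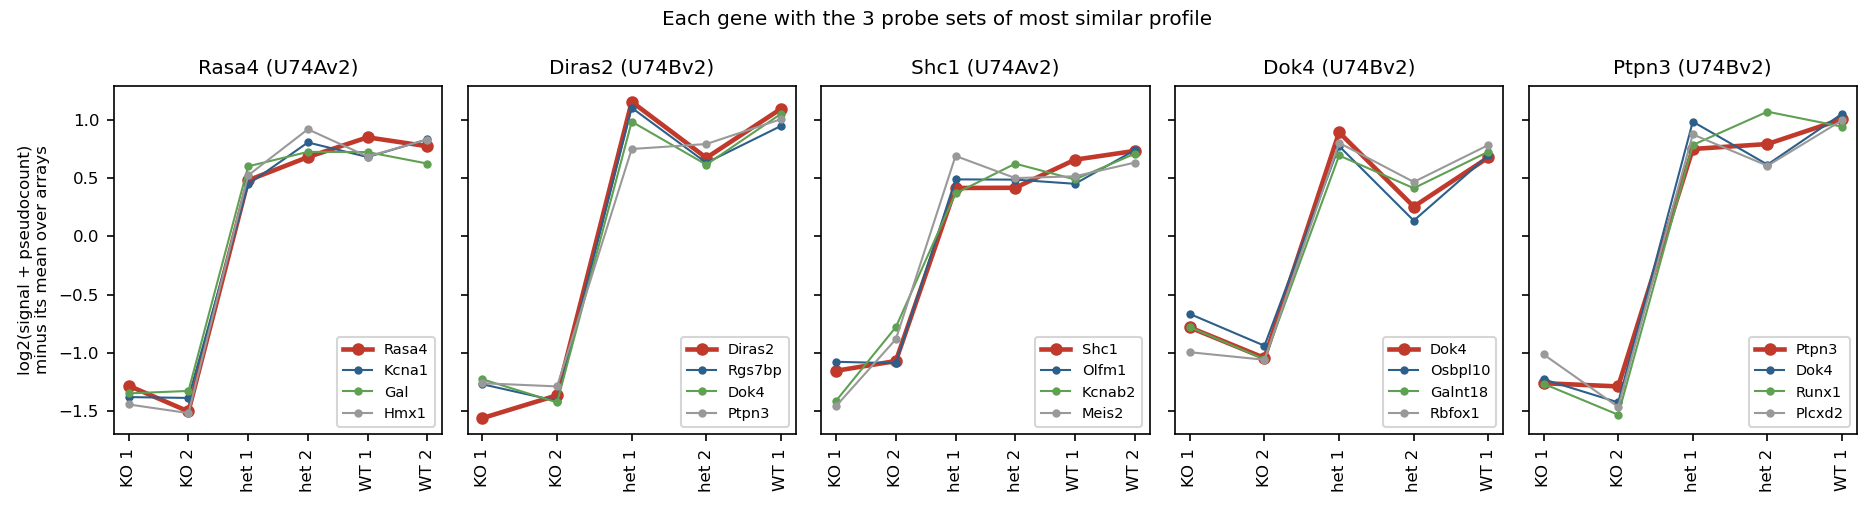
Centred log2 profiles over the arrays, 1 panel a gene, with knockout arrays left, then heterozygote and wild-type; the gene's brightest probe set is the thick line and its 3 nearest profiles are thin. All lines lie lowest on the knockout arrays, and the nearest profiles lie 0.0994 to 0.237 (root-mean-square log2) from the gene.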

How the data were processed

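RNA of trigeminal ganglia was measured on 11 Affymetrix arrays. The deposited values are microarray intensities, linear MAS5 signals with 1 value a probe set, per the submitters' processing notes, which name neither version nor scaling target. The 2% trimmed mean was 500.26 to 500.29 on U74Av2 and 497.61 to 498.38 on U74Bv2, so nothing was rescaled. Genotype and replicate number come from the labels. Symbols came from the platform annotation (10855 of 12488 and 10581 of 12411 probe sets have 1 symbol) and 66 control probe sets were left out. No 2 arrays were identical (r 0.944 to 0.981 on U74Av2 and 0.943 to 0.967 on U74Bv2).

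Signals were taken as log2(signal + pseudocount), 50.0 on U74Av2 and 49.8 on U74Bv2. Probe sets above the 40th percentile of mean log2 signal were tested: 7453 of 5663 genes and 7446 of 5152 genes. limma 3.58.1 in R 4.3.3 fitted genotype over all arrays of a type with an intensity trend, and p-values were adjusted over all tested probe sets by Benjamini-Hochberg, two-sided. The lone wild-type U74Bv2 array was assumed to vary like the other genotypes. Python 3.11.15 with matplotlib 3.10.9 drew the plots.

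The 5 genes and all gene lists were chosen with earlier results of these data known. Named from each pathway list are the genes that passed, up to 6, or else the 2 with the brightest probe sets, together with all listed paralogs, Pou4f1, and the 3 nearest profiles of each gene. Pseudocount, dim filter, scaling, trend, replicate block and each left-out array were the alternatives. Protein sequences were not used here. Code was tested on simulated data.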

Additional observations from a re-analysis of the deposited data

How the results depend on the processing

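The 5 genes' knockout differences stayed negative in every alternative run, from -2.80 to -0.35. Their heterozygote minus wild-type counts stayed at 0 in every alternative. Of single heterozygote differences, Dok4 114679_at changed sign, to 0.12 with the replicate block, and ranged from -0.42 to 0.22 over the arrays left out in turn; Diras2 ranged from -0.42 to 0.0596. Both were positive without heterozygote 2. On U74Av2, 1 of 2 probe sets of the 5 genes, Rasa4, passed in knockout against wild-type without either heterozygote array. In knockout against heterozygotes both passed with quantile normalization and with the block. Dok4 114679_at did not pass either knockout comparison with no filter or no trend.

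Replicate numbers were shared by genotypes, and same-numbered arrays deviated together on U74Av2 (0.533 to 0.619) and weakly on U74Bv2 (0.103), but 2 numbers do not establish pairs. With the replicate block, other pathway genes passing in knockout against wild-type were 2 on U74Av2 (Dusp6 higher, Kit lower) and 3 on U74Bv2 (Irs1 higher, Dusp5 and Grb14 lower), and against heterozygotes 4 and 6. Polr2c had an adjusted p of 0.0283 in knockout against wild-type with the block. With quantile normalization 2 genes, Grb14 and Irs1, passed against heterozygotes on U74Bv2. Leaving out arrays gave 0 to 2 against wild-type and 1 to 3 against heterozygotes on U74Bv2, and 0 on U74Av2. The highest of these were 2 without heterozygote 1 and 3 without knockout 2. The count against heterozygotes was 2 without knockout 1, heterozygote 2 or the wild-type array. The count against wild-type was 1, Grb14, without heterozygote 2.

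Of all probe sets, 19 passed in knockout against wild-type on U74Av2, or 130 with the block, and 0, 5, 4 and 2 without knockout 1, knockout 2, wild-type 1 and wild-type 2. Against heterozygotes 14 passed, or 129 with the block, and 0, 5, 3 and 2 without knockout 1, knockout 2, heterozygote 1 and heterozygote 2. On U74Bv2, 104 passed against wild-type, or 21 with no filter, 40 with no trend, 216 with the block and 162 without heterozygote 1. Against heterozygotes 127 passed, or 54, 81 and 317 with no filter, no trend and the block. Heterozygote minus wild-type gave 0 there, or 7 with the block, and 3, 3 and 2 without knockout 1, knockout 2 and heterozygote 2. Without its wild-type array U74Bv2 gives no comparison with wild-type. The cause of these changes was not tested.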

Other observations

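Some pathway genes outside the 5, chosen after their values were seen, had knockout arrays apart from all others without passing the test. Kit, a receptor tyrosine kinase, had 263.1 and 304.4 in knockout ganglia, 484.4 and 794.9 in heterozygotes and 701.5 and 846.7 in wild-type (-1.30 ± 0.28, SE, limma adjusted p = 0.254). On U74Bv2 the feedback inhibitor Dusp5 had 455.3 and 607.1 in knockout, 986.3 and 1023.7 in heterozygote and 1028.4 in wild-type ganglia (-0.90 ± 0.24). The GTPase-activating protein Rasal2 had 1122.7 and 992.8, 1764.9 and 1721.7, and 1823.2 there on 105165_at (-0.76 ± 0.20). On 116809_at it differed by -0.15 ± 0.22. Further genes with knockout arrays apart are not named here. Dusp6, a phosphatase that inactivates ERK, lay higher in knockout ganglia, at 1258.3 and 1668.3 against 647.1 and 791.5 in heterozygotes and 635.5 and 682.0 in wild-type (1.08 ± 0.23, adjusted p = 0.256). On U74Bv2 its other probe set, 107433_at, had 612.9 and 698.4 in knockout, 594.4 and 481.2 in heterozygote and 311.3 in wild-type ganglia. Knockout minus wild-type was 0.96 ± 0.25 there (limma adjusted p = 0.155), but knockout minus heterozygote only 0.27 ± 0.21. Irs1, a docking protein of insulin and IGF receptors, had 1144.8 and 1031.7 in knockout, 523.1 and 602.4 in heterozygote and 513.5 in wild-type ganglia (1.01 ± 0.22, adjusted p = 0.0881).

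The nearest protein-coding neighbours of the 5 genes, taken by gene order only, numbered 10, of which 7 were on the arrays and 6 were tested. In knockout against wild-type 0 of the 6 passed, with 1 at an unadjusted p under 0.05; all 6 are on U74Av2, where 0.255% of all tested probe sets passed and 381 of 7453 had such a p. That gene was Polr2c, a subunit of RNA polymerase II and the neighbour of Dok4, on 160146_r_at, a probe set designed with relaxed rules. It had 526.2 and 502.1 in knockout ganglia, 1159.4 and 1218.1 in heterozygotes and 1454.6 and 997.2 in wild-type (-1.15 ± 0.24, adjusted p = 0.235). Polr2j, beside Rasa4, differed by -0.67 ± 0.31. Gadd45g and Syk, beside Diras2, differed by 0.25 ± 0.23 and -0.26 ± 0.32, and Cks1b and Pygo2, beside Shc1, by 0.20 ± 0.27 and -0.17 ± 0.25.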
